A study of Homo sapiens with 9 samples.

Results

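The 36 genes described here make, use or recycle glutathione, belong to the thioredoxin system, or are known targets of the transcription factor NRF2. They were listed by name. Each gene was represented by the probe annotated to it, under its current or an older symbol, that had the highest mean log2 intensity. Of the 36 genes, 34 had such a probe among the 18852 genes named on the arrays, and for OSGIN1 and FTH1 no probe is named here.

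Total RNA from 3 human ovarian carcinoma lines was compared, with 3 independent samples of each line and 1 array a sample. IGROV-1/Pt1 (Pt1) is a resistant variant labelled as cisplatin-resistant, obtained by exposing the parental line to cisplatin. IGROV-1/OHP (OHP) is a resistant variant whose sample labels say oxaliplatin-resistant, while the description of the series names cisplatin as its selecting drug, so the drug behind OHP is not settled here. The parental IGROV-1 cells, sensitive to cisplatin, are the line that gave rise to both variants. All cells were taken in exponential growth, harvested with trypsin and frozen, and the labels mention no platinum drug at harvest. Each variant is 1 cell line, so a difference between lines cannot be told apart from differences between these particular derivatives.

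Glutathione is a small thiol peptide made from glutamate, cysteine and glycine that neutralizes peroxides and electrophiles and can bind platinum complexes. Thioredoxin is a small protein that reduces disulfides and peroxiredoxins, and both systems draw their electrons from NADPH. NRF2 (gene NFE2L2) is held at a low level by KEAP1, which marks it for degradation, and under oxidative or electrophilic stress it accumulates and, with a small MAF protein, binds antioxidant response elements in the promoters of many of these genes. The pathway has long been studied in relation to platinum sensitivity.

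The core letters of an antioxidant response element, TGACNNNGC on the gene's strand or GCNNNGTCA for the opposite strand, were searched in RefSeq promoter windows of 300 bases, 250 before and 50 after a gene's start (GRCh38.p14). A window was found for 29 of the 36 genes. At least 1 match lay in a window of 12 of these 29 genes (41.4%), against 4384 of 27305 genes with a window (16.1%). The 12 genes were PGD, GCLM, GSTM1, GSTA4, ME1, GSTO1, GSTP1, MGST1, TXNRD1, GPX2, GGT1 and PIR. Since the list was made in part of known NRF2 targets, the higher share may follow from that choice and was not tested. The stretches of 5 genes whose levels are followed below are shown 5′ to 3′ on the gene's strand, up to 25 bases on each side of the match, with the 9 matching bases in capitals. TXNRD1 had further matches that are not shown, 8 bases before the same start and 102 bases before another start. Which TXNRD1 start its probes follow was not examined.
GCLM, chr1:93909431-93909489, minus strand, match starting 34 bases before the start: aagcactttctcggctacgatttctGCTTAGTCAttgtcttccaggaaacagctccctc
TXNRD1, chr12:104215655-104215713, plus strand, match starting 99 bases before the start: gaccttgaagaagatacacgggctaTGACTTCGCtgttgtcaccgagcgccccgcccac
GPX2, chr14:64942834-64942892, minus strand, match starting 122 bases before the start: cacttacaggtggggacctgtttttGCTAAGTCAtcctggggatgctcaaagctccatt
GSTP1, chr11:67583721-67583779, plus strand, match starting 66 bases before the start: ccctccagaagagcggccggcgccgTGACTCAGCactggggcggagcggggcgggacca
PGD, chr1:10398838-10398896, plus strand, match starting 201 bases before the start: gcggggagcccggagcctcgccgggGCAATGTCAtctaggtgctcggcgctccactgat
The windows of NQO1, SRXN1, GSTK1 and GPX1 held no match, which says only that these letters were not in those windows. GSS, GSR, MGST2, SLC7A11, HMOX1, FTH1 and TRIM16L had no window in the table used. A match describes letters and is not a measured binding site.

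Values are the deposited probe intensities on a linear scale, and differences are on the log2 scale after background correction, with SE from the fit. A difference was called at an adjusted p under 0.05 in limma, adjusted over all 18852 genes. A probe was taken as above background on an array when it exceeded 302.19 intensity units, a ceiling that 2.5% of the values of 431 probes for olfactory receptors exceeded. Of the 34 measured genes, 28 were above this ceiling on all arrays of at least 1 line. GSTA1, MGST1, GPX3 and ME1 never passed it on the 9 arrays, and GGT1 and TRIM16L passed it on some arrays but on all arrays of no line. Probe brightness was compared only within a probe, and the number of arrays limits the precision.

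OHP array 2 stood apart. Over the 18852 genes, with 1 chosen probe a gene, it correlated at 0.942 and 0.926 with the other OHP arrays and at 0.956 with parental array 2. The other OHP arrays correlated at 0.99 with each other. Among the 28 genes above background it was below both other OHP arrays for 21 (75.0%, against 42.2% of all genes above background), above both for 6 and between them for 1. The gap reached at least 1 on the log2 scale below the mean of the other OHP arrays for 12 genes, and was widest for GCLM at -3.49. Parental array 2 was below both other parental arrays for 15 of the 28 genes (53.6%, against 32.3% of all genes above background). Results are therefore given with and without OHP array 2 where it changes them.

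**Figure D1:**
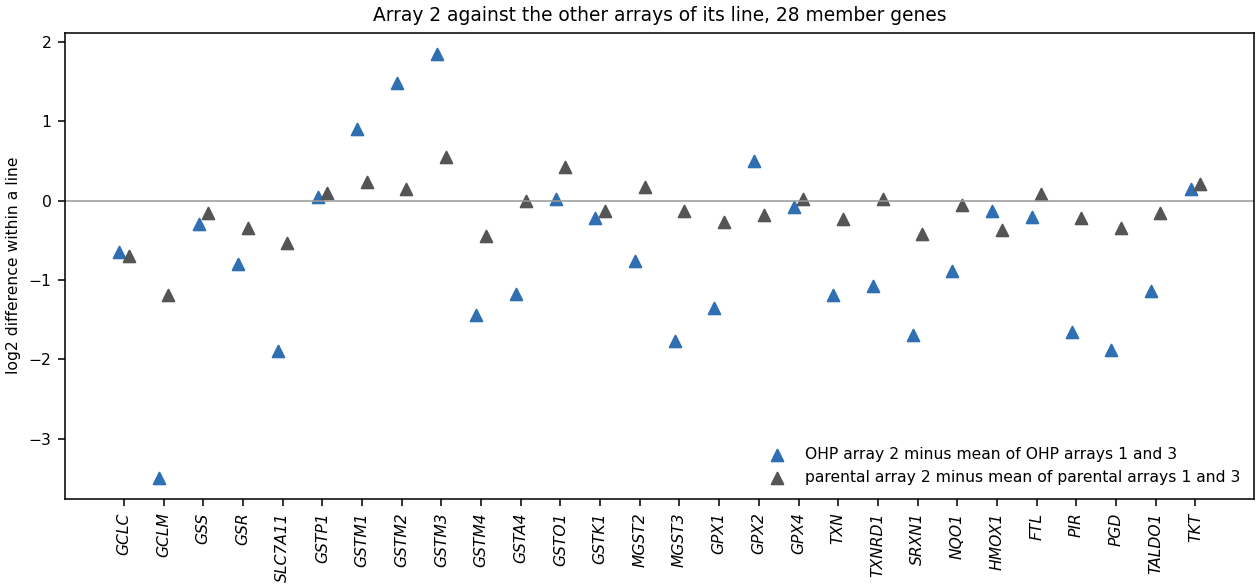
Log2 difference of array 2 from the mean of arrays 1 and 3 of the same line (vertical axis) for the 28 genes above background (horizontal axis), with blue triangles for OHP and grey triangles for parental. OHP array 2 lies below the line at 0 for most genes, down to -3.49 for GCLM, and above it at 1.48 for GSTM2 and 1.85 for GSTM3.

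Of 10 markers of ovarian carcinoma and epithelium, 7, 7 and 8 were above background on all arrays of Pt1, OHP and parental, while WT1 exceeded the ceiling on 0 of the 9. Their summed intensity was 59844 to 63027 in Pt1, 46574 to 75896 in OHP and 104755 to 112940 in parental. Of 4 leucocyte markers measured, 0 were above background on all arrays of any line, and PTPRC, CD3E and CSF1R exceeded the ceiling on 0 of the 9 arrays. Their summed intensity was 858 to 880 in Pt1, 882 to 1067 in OHP and 841 to 942 in parental. Of 5 fibroblast markers, 1, THY1, was above background on all arrays of every line, while DCN, LUM and PDGFRB exceeded the ceiling on 0 arrays. The fibroblast sum was 1384 to 1509 in Pt1, 2108 to 3101 in OHP and 1856 to 2278 in parental. Summed intensity of 3 endothelial markers was 2234 to 3158 in Pt1, 4221 to 10292 in OHP and 1396 to 2992 in parental, and that of 3 erythroid markers 621 to 679, 1549 to 2103 and 49663 to 61001. The part of these marker differences in the results below was not tested. Since each array measured a bulk pellet, fewer cells with a transcript and less of it per cell cannot be told apart.

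Pt1 differed from the parental line at 3 of the 34 measured genes (8.82%, against 9.88% of all genes). Glutathione synthetase (GSS) was higher in Pt1 (1 gene, against 4.15% of all genes called higher), and the glutathione peroxidase GPX1 and the transferase GSTK1 were lower (2 genes, against 5.73% called lower). The median difference over the 34 genes was -0.00 on the log2 scale, against -0.02 over all genes. The Pt1 and parental arrays did not overlap for 19 of the 34 genes, 10 with every Pt1 array higher and 9 with every Pt1 array lower. Over all genes 39.4% did not overlap, 18.2% with Pt1 higher and 21.3% with Pt1 lower. At an unadjusted p under 0.05 there were 9 of the 34 genes, against 22.2% of all genes. The share of the 34 genes called was thus near that of the whole array.

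OHP differed from parental at 3 of the 34 genes (8.82%, against 5.41% of all genes), with 0 higher and 3 lower in OHP (1.75% of all genes were called higher and 3.67% lower). These were the quinone reductase NQO1, the peroxidase GPX2 and GSTK1. The fit did not pair arrays, and with the replicate number as a block GSTK1 was not called (adjusted p = 0.0561). The median difference was -0.15, against -0.01 over all genes, and without OHP array 2 it was -0.01, against -0.03 over all genes. Every OHP array was below every parental array for 7 genes, and for 0 genes were all OHP arrays above (all genes without overlap 18.6%, 7.53% with OHP higher and 11.1% with OHP lower). At an unadjusted p under 0.05 there were 9 of the 34 genes, against 16% of all genes.

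OHP also differed from Pt1 at 3 of the 34 genes (8.82%, against 7.59% of all genes), with GPX2, GSS and NQO1 lower in OHP and 0 higher (4.07% of all genes were called lower and 3.51% higher). The median difference was -0.17, against 0.01 over all genes, and without OHP array 2 it was -0.05. The median over all genes without that array is not given here, so -0.05 does not set these genes apart. The OHP and Pt1 arrays did not overlap for 16 genes, with OHP lower for 13 and higher for 3 (all genes 27.8%, with 13.9% lower and 13.9% higher). At an unadjusted p under 0.05 there were 11 of the 34 genes, against 20.8% of all genes. All comparisons share arrays between them, so they are not independent of one another.

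**Figure D2:**
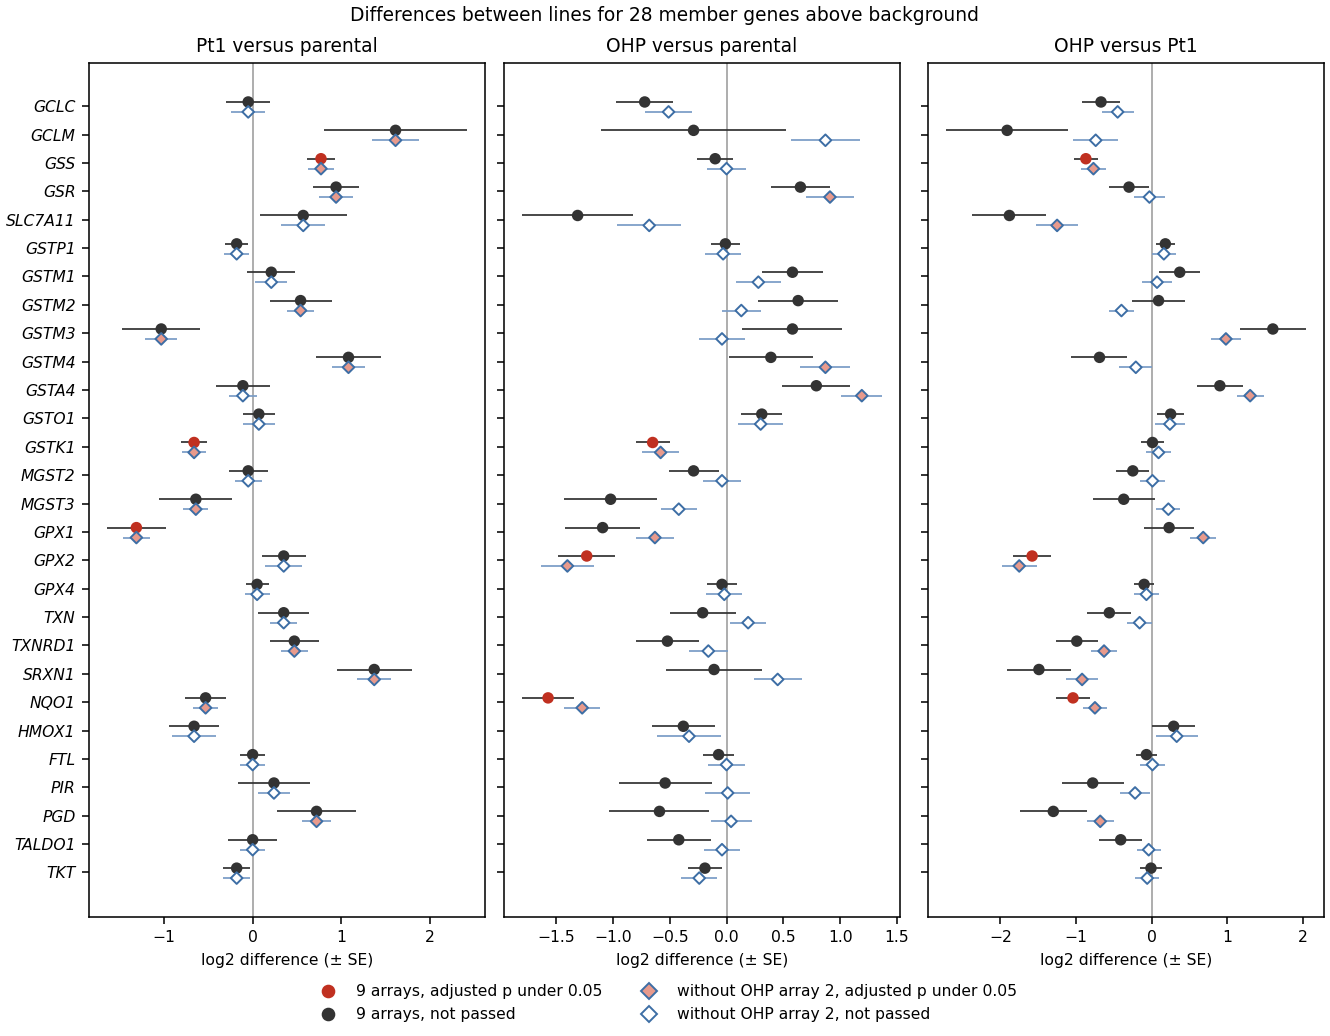
Log2 difference ± SE from the fit (horizontal axis) for the 28 genes above background, in 3 panels for Pt1 versus parental, OHP versus parental and OHP versus Pt1; circles use all 9 arrays and diamonds leave out OHP array 2, and filled red or pink marks passed an adjusted p under 0.05. With all 9 arrays 3 genes passed in each panel, and the SE of GCLM is 0.81 with OHP array 2 in the fit and 0.27 without it in Pt1 versus parental.

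Over the 28 genes above background, OHP had the lowest of the 3 line means for 17 genes (60.7%, against 31.5% of all genes above background), Pt1 for 6 and parental for 5. Without OHP array 2 OHP was lowest for 9 genes (32.1%, against 30.8% of all genes above background), Pt1 for 9 and parental for 10. The order Pt1, parental, OHP from high to low held for 10 genes with all 9 arrays (35.7%, against 19.0%) and for 5 without that array (17.9%, against 13.9%). The order parental, Pt1, OHP held for 7 genes (25%, against 12.6%) and for 4 without that array (14.3%, against 17.0%). With all 9 arrays, for 24 of the 28 genes no neighbouring pair in the order was called apart. The exceptions were GSS, where Pt1 stood above the other lines, GSTK1, where parental stood above both variants, and GPX2 and NQO1, where OHP stood below the other lines. GPX1 was among the 24, but its outer lines were called apart, with Pt1 below parental (adjusted p = 0.0331).

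Among the 6 genes of glutathione synthesis and recycling, 1 rose in Pt1 relative to parental, 0 were called in OHP relative to parental and 1 was lower in OHP relative to Pt1. Shares of all genes called in these comparisons were 9.88%, 5.41% and 7.59%. GSS, which adds glycine in the last step of glutathione synthesis, had intensities of 7555, 7071 and 8321 in Pt1, 4832, 3683 and 4210 in OHP, and 4550, 4201 and 4845 in parental. Every Pt1 array was above every other array, while OHP and parental overlapped. GSS was 0.77 ± 0.16 higher in Pt1 than in parental (adjusted p = 0.0143) and 0.87 ± 0.16 lower in OHP than in Pt1 (log2 difference -0.87, adjusted p = 0.00967). OHP and parental differed by -0.10, with a 95% interval of -0.46 to 0.26. The Pt1 difference kept its size, between 0.70 and 0.82, when any array was left out, but lost its call without Pt1 array 1, Pt1 array 3, parental array 1 or parental array 2 (highest adjusted p 0.0717). The OHP versus Pt1 difference lost its call without Pt1 array 3 only (adjusted p = 0.0549).

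Glutamate-cysteine ligase carries out the rate-limiting step with a catalytic subunit, GCLC, and a modifier subunit, GCLM. GCLM read 17554, 17508 and 15419 in Pt1, 9071, 987 and 11178 in OHP, and 6958, 3240 and 7642 in parental. All Pt1 arrays were above all others, and OHP array 2 was far below the other OHP arrays. The Pt1 versus parental difference of 1.61 ± 0.81 was not called (adjusted p = 0.293), whereas without OHP array 2 the same difference had an SE of 0.27 and passed (adjusted p = 0.000531). A dimmer GCLM probe read 2397, 2082 and 2583 in Pt1, 1784, 1245 and 1684 in OHP, and 1557, 1318 and 1461 in parental, a Pt1 versus parental difference of 0.74 ± 0.19 (adjusted p = 0.0413 over all probes). The spread of this probe in OHP was narrower than that of the brighter one.

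GCLC read 1807, 1781 and 1931 in Pt1, 1375, 908 and 1365 in OHP, and 2294, 1403 and 2155 in parental. OHP was below both other lines on every array, and Pt1 overlapped parental. None of the differences was called, with -0.05 ± 0.25 in Pt1 versus parental (adjusted p = 0.945), -0.72 ± 0.25 in OHP versus parental and -0.67 in OHP versus Pt1 (both at adjusted p = 0.154). The subunits thus did not share a pattern in Pt1, where the GCLM arrays stood apart from parental and the GCLC arrays did not, but the difference between the genes was not tested.

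Glutathione reductase (GSR), which returns oxidized glutathione to its reduced form, read 3874, 3531 and 3735 in Pt1, 2994, 2131 and 4405 in OHP, and 1902, 1694 and 2393 in parental. Pt1 was above parental on every array, and OHP overlapped both lines. The Pt1 difference of 0.94 ± 0.26 missed the threshold (adjusted p = 0.0517) and passed without OHP array 2 or OHP array 3 (adjusted p down to 0.00199). The OHP versus parental difference of 0.65 ± 0.26 was not called (adjusted p = 0.249), and without OHP array 2 it was 0.91 ± 0.21 (adjusted p = 0.00866). A second GSR probe gave -0.03 ± 0.18 for Pt1 and 0.29 ± 0.18 for OHP against parental, so the GSR probes did not give the same picture for Pt1.

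SLC7A11, the cystine importer that supplies cysteine, read 1101, 1058 and 717 in Pt1, 492, 192 and 416 in OHP, and 946, 540 and 585 in parental. OHP was below all other arrays, with array 2 under the background ceiling, and Pt1 overlapped parental. The OHP differences were -1.31 ± 0.49 against parental (adjusted p = 0.208) and -1.88 ± 0.49 against Pt1 (adjusted p = 0.051), neither of them called. Without OHP array 2 the OHP versus parental difference was -0.68 ± 0.28, not called (adjusted p = 0.124). The OHP versus Pt1 difference was then also smaller, -1.25 ± 0.28, and passed (adjusted p = 0.00901), as it also did without OHP array 1 or OHP array 3. GGT1, the membrane enzyme that breaks down external glutathione, was between 211 and 330 on all arrays, close to background.

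**Figure D3:**
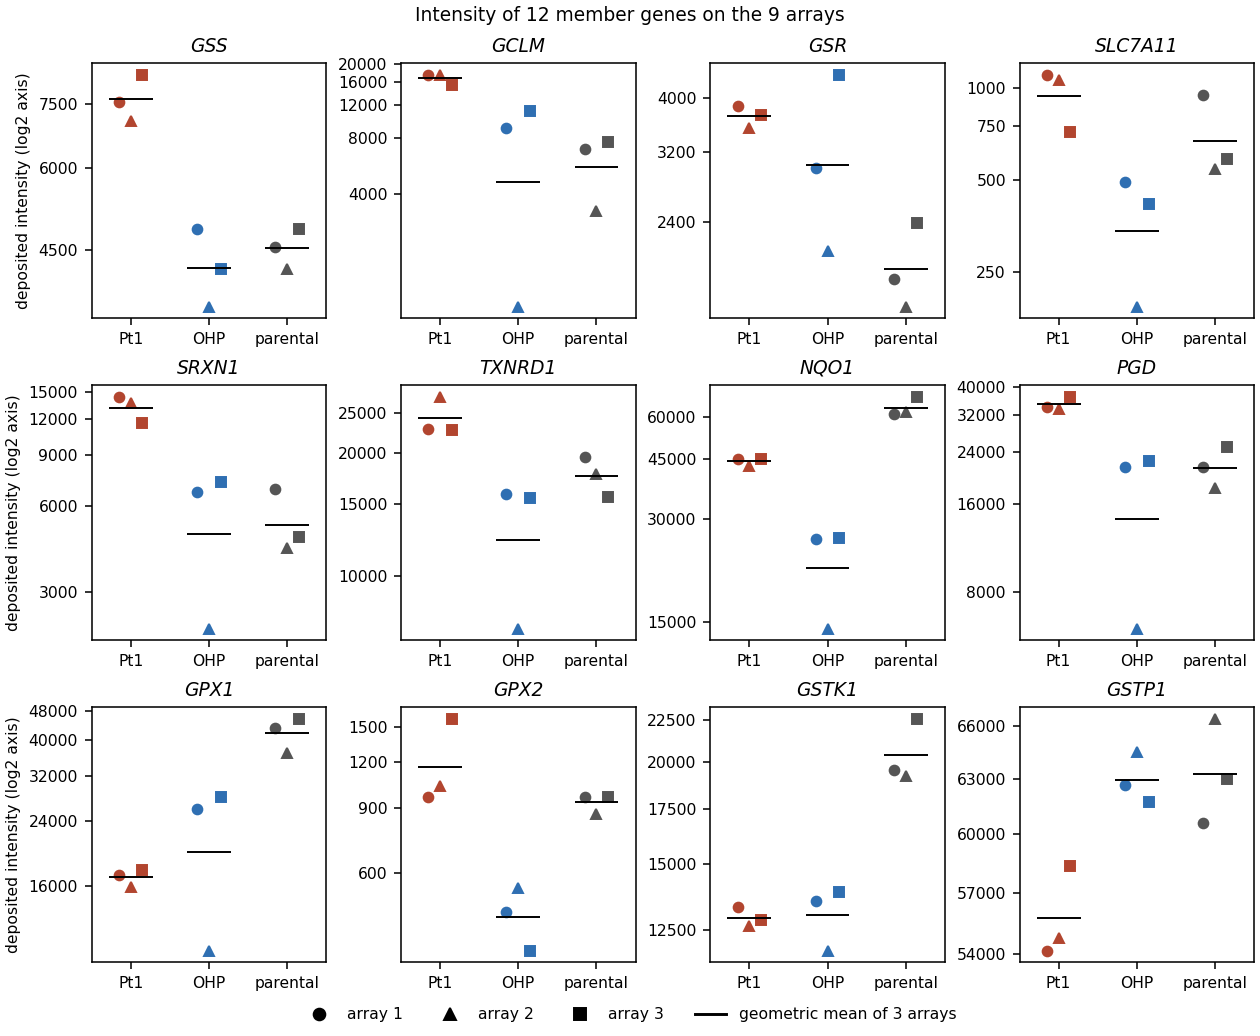
Deposited intensity on a log2 axis (vertical) for 12 genes in Pt1 (red), OHP (blue) and parental (grey), with circles, triangles and squares for arrays 1, 2 and 3 and a bar at the geometric mean; each panel has its own scale. GSS lies between 7071 and 8321 in Pt1, above all other arrays, and NQO1 between 14331 and 26446 in OHP, below all other arrays.

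Of 4 glutathione peroxidases, 1 fell in Pt1 relative to parental (GPX1), 1 fell in OHP relative to parental (GPX2) and 1 was lower in OHP relative to Pt1 (GPX2). Over all genes 5.73%, 3.67% and 4.07% were called lower in these comparisons. GPX1, the widely expressed cytosolic glutathione peroxidase, read 17107, 15910 and 17656 in Pt1, 25970, 10627 and 28001 in OHP, and 43293, 36917 and 45752 in parental. Every array of both variants was below every parental array. GPX1 fell by 1.31 ± 0.33 in Pt1 relative to parental (log2 difference -1.31, adjusted p = 0.0331). In OHP the difference of -1.09 ± 0.33 was not called (adjusted p = 0.106), and without OHP array 2 it was smaller and called, -0.63 ± 0.17 (adjusted p = 0.0194). OHP and Pt1 differed by 0.23, not called, and by 0.68 ± 0.17 without OHP array 2, higher in OHP (adjusted p = 0.016). With any Pt1 array or any parental array left out, the Pt1 difference stayed between -1.40 and -1.25 but was not called, the highest adjusted p being 0.124. A dimmer GPX1 probe was lower in the variants too, by -0.95 ± 0.29 in Pt1 and -0.91 ± 0.29 in OHP, neither past the threshold over all probes.

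GPX2, the peroxidase best known from the gut epithelium and an NRF2 target, read 966, 1035 and 1575 in Pt1, 469, 545 and 367 in OHP, and 967, 865 and 967 in parental. OHP was below all other arrays, and array 2 was here the highest of the OHP arrays. GPX2 was lower in OHP than in parental by -1.23 ± 0.25 (adjusted p = 0.0190) and lower in OHP than in Pt1 by -1.58 ± 0.25 (adjusted p = 0.00387). Pt1 and parental overlapped, with a difference of 0.35 and a 95% interval of -0.20 to 0.91. The OHP versus Pt1 call held with each of the 9 arrays left out, while the OHP versus parental call was lost without OHP array 1, OHP array 3 or any parental array, where the adjusted p reached 0.0823. GPX4, which reduces lipid peroxides in membranes, was between 55951 and 64382 on all arrays, near the top of the scale, and its 95% interval for OHP versus parental ran from -0.34 to 0.25. A second GPX4 probe read 35058, 32709 and 38240 in Pt1, 40179, 19124 and 42644 in OHP, and 25786, 22465 and 26115 in parental. On that probe Pt1 was above parental on every array, with a difference of 0.51 ± 0.28 that was not called (adjusted p = 0.36 over all probes).

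Among 12 glutathione transferases, which join glutathione to electrophiles, 1 fell in Pt1, 1 fell in OHP and 0 were called between the variants. Over all genes 5.73% fell in Pt1, 3.67% fell in OHP and 7.59% were called between the variants. Between the variants 2 transferases had an unadjusted p under 0.05, against 20.8% of all genes. The gene called against parental was GSTK1, a transferase of mitochondria and peroxisomes, in both variants. It read 13329, 12625 and 12821 in Pt1, 13557, 11774 and 13875 in OHP, and 19567, 19232 and 22560 in parental. All arrays of both variants were below all parental arrays, and the variants overlapped. The differences were -0.66 ± 0.15 in Pt1 (adjusted p = 0.0184) and -0.65 ± 0.15 in OHP (adjusted p = 0.0326), and OHP and Pt1 differed by 0.01 with a 95% interval of -0.31 to 0.34. With the replicate number as a block the OHP difference was not called (adjusted p = 0.0561). In OHP the call also ended without any 1 array other than OHP array 2 (adjusted p up to 0.133), and in Pt1 without any 1 Pt1 array, parental array 1 or parental array 3 (highest adjusted p 0.0803), while the Pt1 differences stayed between -0.71 and -0.59.

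GSTP1, the transferase most often studied with platinum drugs, read 54173, 54788 and 58373 in Pt1, 62637, 64506 and 61717 in OHP, and 60595, 66394 and 63006 in parental. Pt1 was below both other lines on every array, by a narrow margin, and OHP overlapped parental. Neither variant was called, with -0.18 ± 0.13 in Pt1 (adjusted p = 0.496, 95% interval -0.48 to 0.12) and -0.01 ± 0.13 in OHP (adjusted p = 0.990, 95% interval -0.31 to 0.29). These intensities lie near the top of the scale, 71072.36. Whether the probe still responded in proportion there was not tested.

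The mu-class transferases are close paralogs, and their probes may pick up one another's transcripts. GSTM3 read 374, 406 and 398 in Pt1, 684, 2208 and 679 in OHP, and 677, 872 and 582 in parental, with every Pt1 array lowest. Its difference was -1.03 ± 0.44 in Pt1 against parental (adjusted p = 0.208) and 1.60 ± 0.44 in OHP against Pt1 (adjusted p = 0.0603). Without OHP array 2, the highest of all, these were -1.03 ± 0.18 (adjusted p = 0.000735) and 0.98 ± 0.20 (adjusted p = 0.00445), and the second was called without OHP array 3 as well. GSTM4 read 711, 707 and 682 in Pt1, 514, 289 and 746 in OHP, and 438, 328 and 390 in parental. Its Pt1 difference of 1.08 ± 0.37 was not called (adjusted p = 0.112) and passed without OHP array 2 (adjusted p = 0.000969) or OHP array 3. In OHP versus parental GSTM4 differed by 0.39 ± 0.37, and by 0.87 ± 0.22 without OHP array 2 (adjusted p = 0.0143). A dimmer GSTM4 probe gave 0.25 ± 0.21 in Pt1 (adjusted p = 0.587 over all probes) and 0.4 ± 0.21 in OHP (adjusted p = 0.465) against parental. GSTM2 in Pt1 was 0.54 ± 0.35 above parental, not called with all 9 arrays in the fit (adjusted p = 0.448) and called without OHP array 2 (adjusted p = 0.0202), and GSTM1 was not called under either set of arrays.

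GSTA4, which acts on lipid peroxidation products, read 625, 503 and 569 in Pt1, 1295, 601 and 1196 in OHP, and 648, 598 and 557 in parental. The OHP arrays other than array 2 were above all arrays of the other lines. With all arrays the OHP difference was 0.79 ± 0.30 against parental (adjusted p = 0.209), and without OHP array 2 it was 1.19 ± 0.18 (adjusted p = 0.000401). The OHP versus Pt1 difference likewise was 0.90 ± 0.30 (adjusted p = 0.117) and, without that array, 1.30 ± 0.18 (adjusted p = 0.000198). MGST3, a microsomal transferase and peroxidase, read 35395, 34294 and 34778 in Pt1, 41922, 11931 and 39138 in OHP, and 53399, 51166 and 58691 in parental. Both variants were below parental on every array, and the Pt1 difference of -0.64 ± 0.41 was not called (adjusted p = 0.423) and passed without OHP array 2 (adjusted p = 0.00418). The OHP difference from parental was -1.02 ± 0.41 (adjusted p = 0.244), and -0.42 ± 0.16 without that array (adjusted p = 0.0906). GSTO1 and MGST2 overlapped between all lines on the probes used. A second GSTO1 probe read 25430, 26610 and 22693 in Pt1, 28731, 5028 and 32709 in OHP, and 19262, 10576 and 17247 in parental. On that probe Pt1 was above parental on every array, by 0.71 ± 0.61, not called (adjusted p = 0.596 over all probes). Its OHP versus Pt1 difference was -0.57 ± 0.61, against 0.25 ± 0.18 on the brighter probe.

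The 3 measured genes of the thioredoxin system were higher on every Pt1 array than on every parental and every OHP array (18.2% of all genes had every Pt1 array above parental, and 13.9% every OHP array below Pt1), but 0 were called in any comparison with all 9 arrays. In Pt1 versus parental 1 of the 3 had an unadjusted p under 0.05, in OHP versus parental 0 had, and in OHP versus Pt1 2 had. Over all genes these shares were 22.2%, 16% and 20.8%. SRXN1, sulfiredoxin, which repairs over-oxidized peroxiredoxins, read 14374, 13665 and 11620 in Pt1, 6713, 2228 and 7275 in OHP, and 6855, 4250 and 4669 in parental. The Pt1 difference was 1.37 ± 0.42 (adjusted p = 0.0742) and the OHP versus Pt1 difference -1.49 ± 0.42 (adjusted p = 0.0646). Without OHP array 2 they passed at 1.37 ± 0.19 (adjusted p = 0.000122) and -0.92 ± 0.21 (adjusted p = 0.0106), and the second also passed without OHP array 3. SRXN1 overlapped between OHP and parental.

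TXNRD1, thioredoxin reductase 1 of the cytosol, read 22851, 27314 and 22730 in Pt1, 15895, 7463 and 15480 in OHP, and 19486, 17710 and 15555 in parental. It was 0.47 ± 0.28 higher in Pt1 than in parental (adjusted p = 0.388) and differed by -0.99 ± 0.28 in OHP versus Pt1 (adjusted p = 0.0663), and neither was called. Without OHP array 2 these were 0.47 ± 0.15 (adjusted p = 0.0391) and -0.63 ± 0.17 (adjusted p = 0.0292), the second also called without OHP array 3. A second TXNRD1 probe, annotated to another transcript, read 9797, 12821 and 8955 in Pt1, 5133, 472 and 7331 in OHP, and 2878, 1405 and 3620 in parental. It too was highest in Pt1 on every array, with a Pt1 versus parental difference of 2.14 ± 0.93 that was not called (adjusted p = 0.23 over all probes).

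Thioredoxin itself (TXN) read 66394, 66667 and 68751 in Pt1, 58373, 26383 and 61967 in OHP, and 54173, 47450 and 57165 in parental. Pt1 was above every other array, near the top of the scale, and the difference of 0.35 ± 0.29 from parental was not called (adjusted p = 0.566). Leaving out OHP array 2 did not bring TXN past the threshold (adjusted p = 0.0989).

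Of the NRF2 targets that handle quinones, haem and iron, 4 of 5 were measured, and NQO1 alone was called. It was called in OHP versus parental, as were 5.41% of all genes, and in OHP versus Pt1, as were 7.59%. NQO1, an enzyme that reduces quinones with electrons from NADPH or NADH and a standard readout of NRF2 activity, read 44953, 43003 and 45041 in Pt1, 26349, 14331 and 26446 in OHP, and 60864, 62071 and 68556 in parental. The lines did not overlap, with OHP lowest, Pt1 between and parental highest. NQO1 was lower in OHP than in parental by -1.57 ± 0.23 (adjusted p = 0.00365) and lower in OHP than in Pt1 by -1.04 ± 0.23 (adjusted p = 0.0251). The OHP versus parental call held with each of the 9 arrays left out, with differences between -1.72 and -1.27. The OHP versus Pt1 call was lost without any 1 of the Pt1 arrays (adjusted p up to 0.0974). In Pt1 the difference of -0.53 ± 0.23 was not called (adjusted p = 0.225), and without OHP array 2 it was (adjusted p = 0.0137).

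A second, dimmer NQO1 probe read 709, 826 and 731 in Pt1, 798, 317 and 465 in OHP, and 1461, 1608 and 1575 in parental. It was again below parental on every variant array, by -1.91 ± 0.34 in OHP (adjusted p = 0.013 over all probes) and -1.14 ± 0.34 in Pt1, which was not called (adjusted p = 0.0796). OHP and Pt1 overlapped on this probe, and their difference of -0.77 ± 0.34 was not called (adjusted p = 0.267).

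HMOX1, haem oxygenase, read 3601, 3176 and 3049 in Pt1, 4435, 3731 and 3753 in OHP, and 8331, 4321 and 3725 in parental. Pt1 was below both other lines, and parental array 1 was far above the other parental arrays. HMOX1 was called in no comparison with all 9 arrays weighted alike, at -0.66 ± 0.28 in Pt1 versus parental (adjusted p = 0.196) and -0.38 ± 0.28 in OHP versus parental. Without parental array 1 these were -0.30 ± 0.18 (adjusted p = 0.443) and -0.02 ± 0.18 (adjusted p = 0.989). FTL, the light chain of the iron store ferritin, was between 58188 and 69599 on all arrays, near the top of the scale, with a Pt1 versus parental difference of -0.00 and a 95% interval of -0.31 to 0.31. FTL has processed pseudogenes that its probe may also detect. PIR, an iron-binding nuclear protein, was between 6179 and 6345 in Pt1, 1766 and 6677 in OHP, and 4823 and 6174 in parental, and was not called.

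Of 4 genes that supply NADPH or feed the pentose phosphate pathway, 0 were called in any comparison with all 9 arrays. Against 20.8% of all genes, 1 of the 4 had an unadjusted p under 0.05 in OHP versus Pt1. That gene was PGD, which makes NADPH in the oxidative pentose phosphate pathway, with 34089, 33674 and 36917 in Pt1, 21245, 6012 and 22419 in OHP, and 21245, 18126 and 24857 in parental. Pt1 was above every other array, and OHP overlapped parental. The Pt1 versus parental difference was 0.72 ± 0.44 (adjusted p = 0.399), and without OHP array 2 it passed (adjusted p = 0.00401). The OHP versus Pt1 difference was -1.30 ± 0.44 (adjusted p = 0.119), and -0.68 ± 0.18 without OHP array 2 (adjusted p = 0.0216), and it was called without OHP array 3 as well. TALDO1 and TKT, enzymes of the non-oxidative branch, were not called with or without OHP array 2. The Pt1 versus parental 95% interval of TALDO1 was -0.63 to 0.62 and that of TKT -0.51 to 0.14. TRIM16L, a close relative of TRIM16, was between 195 and 324 on all arrays.

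Leaving out OHP array 2 raised the number of genes called in each comparison. In Pt1 versus parental, where that array enters only through the shared spread, 13 of 34 genes were then called (38.2%, against 25.9% of all genes). Of these, 8 were higher in Pt1 (GCLM, GSR, GSS, GSTM2, GSTM4, PGD, SRXN1 and TXNRD1) and 5 lower (GPX1, GSTK1, GSTM3, MGST3 and NQO1). In OHP versus parental 7 were called (20.6%, against 16.7% of all genes), with GSR, GSTA4 and GSTM4 higher and GPX1, GPX2, GSTK1 and NQO1 lower. In OHP versus Pt1 10 were called (29.4%, against 12.2% of all genes), with GPX1, GSTA4 and GSTM3 higher and GPX2, GSS, NQO1, PGD, SLC7A11, SRXN1 and TXNRD1 lower. Set against genes above background alone, the shares were 46.4% of 28 against 42.2% in Pt1 versus parental, 25% against 27% in OHP versus parental and 35.7% against 19.9% in OHP versus Pt1.

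Fitted on genes above background alone, 4, 3 and 5 of 28 genes were called in Pt1 versus parental, OHP versus parental and OHP versus Pt1, against 17.3%, 9.3% and 13.5% of all genes so fitted. With the replicate number as a block 2 of 34 genes were called in OHP versus parental, against 5.42% of all genes. Without both OHP array 2 and parental array 2 there were 12, 8 and 11 of 34 in the 3 comparisons, against 21.8%, 13.3% and 14.4% of all genes.

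Of the 34 genes, 17 had several probes, and 10 of these had several above background on all 9 arrays. The probes of a gene had the same sign for 9 of 10 genes in Pt1 versus parental, 7 of 10 in OHP versus parental and 7 of 10 in OHP versus Pt1. GSR was the gene with opposite signs in Pt1.

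Around these genes, 5 lists held 82 further genes of the same pathways, of which 76 were measured. In Pt1 versus parental 6 rose and 5 fell (14.5% called, against 9.88% of all genes), in OHP versus parental 2 rose and 8 fell (13.2%, against 5.41%), and in OHP versus Pt1 1 was higher and 3 were lower (5.26%, against 7.59%). Because the lists were chosen with earlier results of these data known, these shares are no test of the pathways. The 9 measured genes that control NRF2 gave 0 calls in each comparison, with 1, 1 and 3 at an unadjusted p under 0.05. Over all genes 22.2%, 16% and 20.8% had such a p. NFE2L2, which encodes NRF2, read 9016, 8481 and 7485 in Pt1, 7177, 4313 and 10174 in OHP, and 7659, 4625 and 8545 in parental. Its arrays overlapped in every comparison, with 0.31 ± 0.33 in Pt1 (adjusted p = 0.669) and 0.02 ± 0.33 in OHP (adjusted p = 0.991) against parental. KEAP1, its inhibitor, read 6438, 6187 and 7315 in Pt1, 5321, 2368 and 6686 in OHP, and 3308, 2643 and 4416 in parental. Pt1 was above parental on every array, and the difference of 0.99 ± 0.36 was not called (adjusted p = 0.134), nor was the OHP difference of 0.38 ± 0.36 (adjusted p = 0.726). Without OHP array 2, KEAP1 passed in Pt1 (adjusted p = 0.00193) and in OHP, at 0.84 (adjusted p = 0.0182), against parental.

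Of 20 other NRF2 target genes measured, 4 rose and 3 fell in Pt1 and 2 rose and 4 fell in OHP relative to parental, and 1 was lower in OHP than in Pt1. These were 35.0%, 30.0% and 5.0% of the list, against 9.88%, 5.41% and 7.59% of all genes. Earlier results of these data were known when the list was chosen, so these shares are no test of NRF2 targets. A fold is given as a bound where no array of a line exceeded the ceiling. PTGR1, a reductase of prostaglandins and other enones, read 5440, 4016 and 4617 in Pt1, 196, 189 and 191 in OHP, and 214, 212 and 233 in parental. It was at least 15.4-fold higher in Pt1 than in parental (adjusted p = 1.5e-07) and at least 15.4-fold lower in OHP than in Pt1 (adjusted p = 9.35e-08), being at background in both lines other than Pt1. AKR1C3, an aldo-keto reductase, read 15920, 13554 and 16025 in Pt1, 16173, 10712 and 13866 in OHP, and 1961, 1911 and 2567 in parental. It rose by 2.89 ± 0.20 in Pt1 (adjusted p = 1.97e-05) and rose by 2.71 ± 0.20 in OHP (adjusted p = 4.54e-05). AKR1C genes are close paralogs, so this probe may not separate them fully.

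ABCC2, a pump that exports glutathione conjugates, read 1381, 2202 and 1943 in Pt1, 859, 1607 and 845 in OHP, and 299, 287 and 261 in parental. It was at least 5.98-fold higher in Pt1 (adjusted p = 0.000107) and at least 3.48-fold higher in OHP (adjusted p = 0.00119) than in parental. ABCC3, a pump of the same family, went the other way, with 2942, 2345 and 3015 in Pt1, 2194, 3941 and 1544 in OHP, and 24792, 20710 and 15789 in parental. It fell by 2.91 ± 0.33 in Pt1 (adjusted p = 0.000421) and fell by 3.14 ± 0.33 in OHP (adjusted p = 0.000442). ALDH3A1, an aldehyde dehydrogenase, read 229, 194 and 240 in Pt1, 191, 221 and 191 in OHP, and 354, 548 and 471 in parental. It was at least 1.49-fold lower than in parental in Pt1 (adjusted p = 0.00371) and in OHP (adjusted p = 0.00245). The list thus held genes called higher and genes called lower in the same line.

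Of 15 other thioredoxin, peroxiredoxin and glutaredoxin genes measured, 1 rose and 1 fell in Pt1 (13.3%, against 9.88% of all genes), 2 fell in OHP (13.3%, against 5.41%), and 1 was lower in OHP than in Pt1 (6.67%, against 7.59%). TXNRD2, the mitochondrial thioredoxin reductase, read 3400, 5523 and 4450 in Pt1, 3045, 4577 and 2009 in OHP, and 1630, 1976 and 1466 in parental, and rose by 1.43 ± 0.31 in Pt1 (adjusted p = 0.0165). Glutaredoxin (GLRX), which uses glutathione to reduce mixed disulfides, read 1037, 868 and 953 in Pt1, 2271, 1088 and 2163 in OHP, and 4191, 3805 and 5582 in parental. The lines did not overlap for GLRX, which fell by 2.36 ± 0.30 in Pt1 (adjusted p = 0.000839) and fell by 1.41 ± 0.30 in OHP (adjusted p = 0.0242). GLRX2, its mitochondrial relative, fell by 1.29 ± 0.31 in OHP (adjusted p = 0.0400; 0.0646 with the replicate number as a block). SESN3, a sestrin, was at least 1.45-fold lower in OHP than in Pt1 (adjusted p = 0.0292).

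Of 25 other glutathione genes measured, 1 was called in each comparison (4.0%, against 9.88%, 5.41% and 7.59% of all genes). GSTZ1, a transferase of tyrosine breakdown, read 930, 886 and 1058 in Pt1, 836, 1229 and 705 in OHP, and 1735, 1730 and 1481 in parental. It fell by 0.85 ± 0.23 in Pt1 (adjusted p = 0.0451) and fell by 0.95 ± 0.23 in OHP (adjusted p = 0.0414), the second not called with the replicate number as a block (adjusted p = 0.0542). HAGH, a glyoxalase that releases glutathione, read 8794, 10347 and 6139 in OHP and 3467, 3132 and 3501 in Pt1, and was 1.32 ± 0.20 higher in OHP (adjusted p = 0.00357). The parental arrays, at 5452, 5971 and 5063, lay between the variants.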

How the data were processed

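Total RNA of 9 samples was hybridized to Illumina bead arrays. The deposited values are linear intensity values of 48803 probes, and BeadStudio is named without a version, per the submitters' processing notes. By the values, the authors' intensities were quantile normalized (sorted columns differ by at most 1.08%) and not background subtracted. Array medians were 228.2 to 228.34. A second deposited table, whose 18 columns carry array barcodes not found in the sample labels, was not used. Probes with 1 symbol (28098) were kept, those with several (13) or none (20692) left out, and the brightest probe represented each of 6132 genes with several.

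limma 3.58.1 (R 4.3.3) applied normexp (offset 50), log2, lmFit and eBayes to all 9 arrays, with 6 residual and 3.47 prior degrees of freedom, 2-sided, Benjamini-Hochberg over 18852 genes. P-values measure the spread between samples described as independent. In data simulated for Pt1 versus parental (18852 genes, 50 changed a size), 0%, 38%, 88% and 96% of changes of 0.5, 1, 2 and 3 (log2) were recovered. The changed genes were drawn from all genes, background ones included, and were fewer than the 1863 called in the data. These rates are therefore not the power of the real comparison. Deviations from the line mean of same-numbered OHP and parental arrays correlated at 0.126, 0.671 and 0.502. Those of Pt1 and parental correlated at 0.182, 0.045 and -0.004, and those of OHP and Pt1 at 0.021, -0.011 and -0.192. OHP and parental numbers were therefore treated as possible pairs, though the labels give no reason for pairing. Deviations cancel within a line and include the distinct OHP array 2, so these correlations are not independent and do not establish pairs. The main fit took no account of pairs, and the replicate block was run as an alternative. The genes and lists were chosen with earlier results of these data known. Values were given by array for called genes and for 12 genes set by name, for others by range unless leaving out 1 array changed a call, and for up to 4 called genes a list with the largest change. Alternatives were the background step, a second quantile step, array weights, the background filter, the lines fitted, the replicate block, the mean of a gene's probes and leaving out arrays. Python 3.11.15 and matplotlib 3.10.9 drew the plots.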

Additional observations from a re-analysis of the deposited data

Results flagged for a closer look

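For 3 genes the difference of the OHP line from parental was not the same as that of the Pt1 line, by a direct test of OHP versus Pt1 in which the parental arrays cancel. GSS differed by -0.87 on the log2 scale, with all 3 OHP arrays below all 3 Pt1 arrays. GPX2 differed by -1.58 and NQO1 by -1.04, again with every OHP array below every Pt1 array. For GSS, Pt1 was the line called away from parental, and for GPX2 and NQO1 it was OHP.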

How the results depend on the processing

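In each of the 3 comparisons 3 of the 34 genes were called. The counts with other settings were as follows. In Pt1 versus parental they were 14 with array weights, 13 with only these 2 lines fitted, 5 with the replicate number as a block, 12 without OHP array 2 and parental array 2, and 0 to 13 with each array left out in turn. In OHP versus parental they were 7 with array weights, 8 without both array 2s, 2 with only these lines fitted, where GSTK1 was lost (adjusted p = 0.137), and 1 to 7 with each array left out. In OHP versus Pt1 they were 12 with array weights, 5 with only genes above background, 6 with the replicate block, 11 without both array 2s, 2 with only these lines fitted, where NQO1 was lost (adjusted p = 0.0876), and 1 to 10 with each array left out. The replicate block gave 2 calls in OHP versus parental, with GSTK1 lost, also when only those lines were fitted. In Pt1 versus parental the block added GSR and SRXN1, and in OHP versus Pt1 it added GSTM3, SLC7A11 and SRXN1, against 11.1% and 8.48% of all genes called, though these numbers do not pair the samples. No share of all genes is given for array weights, for only 2 lines fitted or for left-out arrays other than OHP array 2. Without OHP array 2, 25.9%, 16.7% and 12.2% of all genes were called in the 3 comparisons, against 9.88%, 5.41% and 7.59% with every array. The counts under settings with no such share therefore do not set the 34 genes apart from other genes. No called gene changed direction under any setting run. Omitting normexp or adding a quantile step left 3 calls in each comparison, and the mean of all probes gave 3, 4 and 2. Array weights gave OHP array 2 a weight of 0.111, against 0.59 to 3.4 for the others, and that fit stopped before reaching its tolerance. The fit without both array 2s was chosen after seeing the data, as was the block with only OHP and parental arrays. Changes of 0.5 on the log2 scale were not recovered in simulated data. Fewer genes were changed there than were called in the data, so that result does not set the size that could be called here. Small differences may still be missed with 3 arrays a line. Values near the top of the scale, such as TXN, FTL and GSTP1, and values near background may limit the differences that could be seen, which was not tested.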

Other observations

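Of 7 genes that remove superoxide and hydrogen peroxide or repair oxidized methionine, 1 rose in Pt1, 1 fell in OHP, and 1 was lower in OHP than in Pt1 (14.3% each, against 9.88%, 5.41% and 7.59% of all genes). MSRB3, a methionine sulfoxide reductase, read 5109, 5068 and 6038 in Pt1, 3270, 1847 and 3789 in OHP, and 1996, 1471 and 2000 in parental. It was 1.63 ± 0.27 higher in Pt1 than in parental (adjusted p = 0.00467), and in OHP, where 1 array overlapped parental, the difference of 0.68 ± 0.27 was not called (adjusted p = 0.246). SOD3, the extracellular superoxide dismutase, read 329, 405 and 443 in Pt1, 226, 264 and 285 in OHP, and 409, 510 and 506 in parental. It was at or under background in OHP, at least 1.56-fold lower than in parental (adjusted p = 0.00981) and at least 1.29-fold lower than in Pt1 (adjusted p = 0.0412).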
